A study of Homo sapiens with 6 samples.

Results

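Among the 35410 genes listed in the MACE-Seq table of the SEM leukemia model, 7 genes grouped as lying outside the blood lineage programmes were picked for very large gains in the line with induced EGR3: PRSS12, RTN4R, PAN3, AIF1L, LCN6, TSPAN17 and MYBPC2. The members were selected on their raw counts in SEM::EGR3 against those in SEM::mock, with no fixed cutoff. Their levels in this contrast are therefore given as a description without a test. All 7 were in the annotation and all 7 passed the filter on low counts.

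SEM is a proB cell line from an acute lymphoblastic leukemia with the KMT2A::AFF1 fusion. SEM::EGR3 cells carried a doxycycline-inducible EGR3 transgene and SEM::mock cells the empty vector, each as an established transfected line, and every sample received 1 µg/mL doxycycline for 48 h before RNA extraction. RNA of 3 biological replicates per line was measured by MACE-Seq, which counts reads at the 3′ end of polyadenylated transcripts, so that counts do not scale with transcript length. Uninduced cells were not analysed here, so the induction of EGR3 and any lasting difference between the 2 lines cannot be told apart.

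The 7 genes belong to unrelated protein families. PRSS12 encodes neurotrypsin, a secreted serine protease of synapses with scavenger receptor cysteine-rich domains that cleaves agrin. RTN4R encodes the Nogo receptor, a lipid-anchored surface protein of neurons that binds Nogo-A and other myelin proteins and limits axon growth. PAN3 is the regulatory subunit of the PAN2-PAN3 complex, which shortens poly(A) tails. AIF1L is a calcium-binding protein related to AIF1 that bundles actin. LCN6 is a lipocalin, a secreted carrier of small hydrophobic molecules, known from the epididymis. TSPAN17 is a tetraspanin of the TspanC8 subgroup, which escorts the membrane protease ADAM10. MYBPC2 is the fast isoform of myosin-binding protein C in the thick filament of skeletal muscle.

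EGR3 is a zinc finger factor whose family binds GC-rich motifs of the form GCGNGGGCG. RefSeq promoter windows of 300 bases (250 before and 50 after the start, build GRCh38.p14) were found for 5 of the 7 genes, namely PRSS12, RTN4R, PAN3, LCN6 and TSPAN17. Upstream stretches of 3 of them are shown 5′ to 3′ on the strand of the gene, RTN4R and LCN6 as the highest and lowest in GC content and TSPAN17 for its GC boxes, which were searched after the letters had been seen. The RTN4R stretch lies on the minus strand at chr22:20268319-20268568, and the capitals mark the match to GCGNGGGCG on the opposite strand. The LCN6 stretch lies on the minus strand at chr9:136748526-136748775, and the capitals mark TATAAA on the strand of the gene. The TSPAN17 stretch lies on the plus strand at chr5:176647234-176647483, and the capitals mark GC boxes, GGGCGG, on either strand, with neighbouring matches overlapping in the last run.
RTN4R: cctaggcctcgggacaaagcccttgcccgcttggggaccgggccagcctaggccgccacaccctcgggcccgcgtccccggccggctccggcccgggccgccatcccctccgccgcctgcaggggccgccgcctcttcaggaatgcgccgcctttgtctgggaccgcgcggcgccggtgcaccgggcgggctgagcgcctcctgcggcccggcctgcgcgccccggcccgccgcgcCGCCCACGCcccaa
LCN6: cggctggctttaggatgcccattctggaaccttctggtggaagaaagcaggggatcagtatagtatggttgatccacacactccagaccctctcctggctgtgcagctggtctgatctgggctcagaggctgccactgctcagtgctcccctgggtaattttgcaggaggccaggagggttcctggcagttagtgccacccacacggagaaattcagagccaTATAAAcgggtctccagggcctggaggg
TSPAN17: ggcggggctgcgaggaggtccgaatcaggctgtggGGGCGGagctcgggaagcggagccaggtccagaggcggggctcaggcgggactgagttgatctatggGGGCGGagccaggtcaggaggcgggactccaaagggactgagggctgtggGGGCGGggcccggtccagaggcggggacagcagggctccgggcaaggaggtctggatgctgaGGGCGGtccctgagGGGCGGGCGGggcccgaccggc

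RTN4R was the only gene of the 5 with a match to GCGNGGGCG searched on both strands. Its window held 2 matches on the opposite strand, at -14 and +15 from the start, while 9.43% of the 35116 promoters in the table held at least 1 and 1.59% held at least 2. Among promoters of tested genes, 15.6% held the motif. No match says only that these letters are not in this window, and a match is not a binding site. GC boxes and TATAAA were searched after the letters had been seen. The TSPAN17 window held 7 GC boxes on both strands together, a number reached by 1.50% of all promoters, of which 45.0% held at least 1. RTN4R held 3, PRSS12 and PAN3 held 2 each and LCN6 held 1. TATAAA on the strand of the gene occurred in LCN6 alone, at -28, and in 7.33% of all promoters. The GC content of the windows was 82.0% for RTN4R, 76.0% for PRSS12, 74.0% for TSPAN17, 70.3% for PAN3 and 58.7% for LCN6, against a median of 65.3% over the promoters of tested genes. The ratio of observed to expected CpG dinucleotides was 0.235 for LCN6 and 0.951 for RTN4R, with a median of 0.579 over all promoters. The 5 promoters thus shared no motif searched other than the GC box.

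The libraries held between 5286115 and 6181388 counts in SEM::mock and between 7293092 and 15106018 in SEM::EGR3. EGR3 itself was counted 8, 10 and 6 times in the SEM::mock replicates and 9768, 4952 and 5557 times in the SEM::EGR3 replicates. The marker lists went against the proB label of the SEM::mock libraries. The 12 proB markers summed to between 2.65 and 5.88 counts scaled to a library of 1000000 (CPM) in SEM::mock and between 497 and 524 CPM in SEM::EGR3. Of these markers, 9 had at most 3 counts in every library labelled SEM::mock, among them PAX5, and 4 were at 0 there, among them EBF1. Not all of these separate the lines. DNTT, BLNK and RAG2, also at 0 there, had at most 2 counts in any SEM::EGR3 library, and VPREB1 had 8, 6 and 5. The 7 targets of KMT2A fusions summed to between 21.6 and 24.9 CPM against between 723 and 765 CPM. The 14 erythroid and megakaryocyte markers summed to between 4912 and 5209 CPM in SEM::mock and between 6143 and 6398 CPM in SEM::EGR3. The sums for myeloid markers were between 297 and 306 CPM against between 233 and 236 CPM, for T cell markers between 60.4 and 66.5 CPM against between 85.7 and 91.6 CPM, and for fibroblast and epithelial markers between 750 and 782 CPM against between 453 and 477 CPM. These 3 sums combine members that moved in opposite directions. Among T cell markers, 3 were higher and 2 lower of 5 tested, with CD3D at means of 58.1 and 6.26 CPM and TRAC at 1.21 and 74.7 CPM in SEM::mock and SEM::EGR3. Of 5 tested myeloid markers, 2 were higher and 2 lower, with log2 fold changes of 3.35 for CEBPA and -1.85 for LYZ. Of 5 tested fibroblast and epithelial markers, 2 were higher and 3 lower, with 3.57 for COL1A1 and -1.84 for KRT18. All 7 gained genes were high in the same libraries as the proB and KMT2A target lists, and the part of cell identity in their gain was not tested. In bulk RNA, fewer cells of a type and less RNA per cell cannot be told apart.

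**Figure D1:**
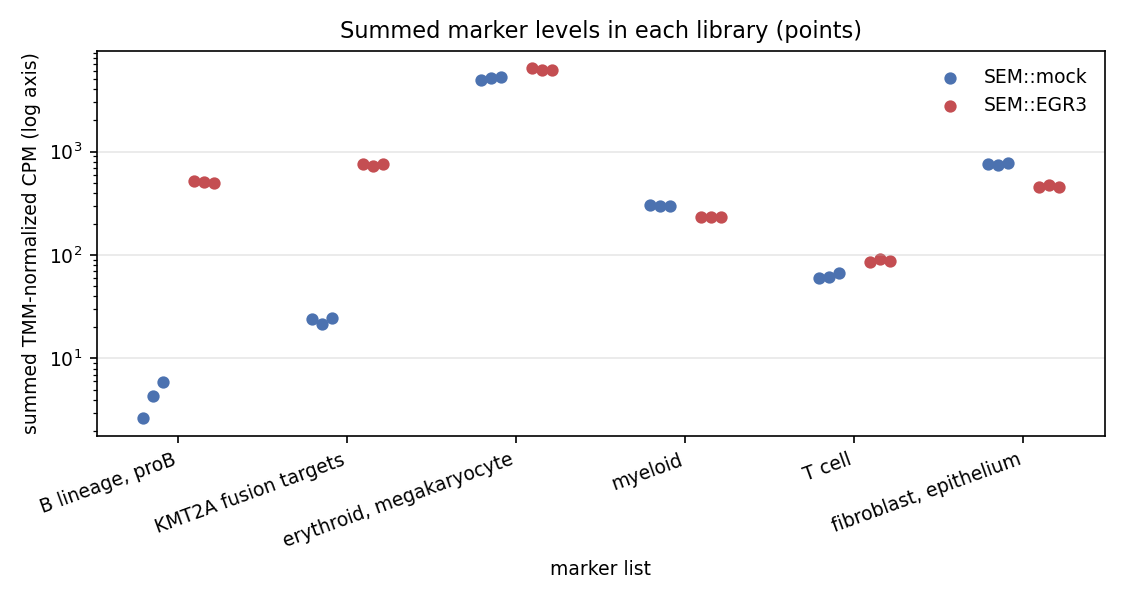
Summed TMM-normalized CPM (log axis) of 6 marker lists in each of the 6 libraries, with SEM::mock in blue and SEM::EGR3 in red. The proB and KMT2A target sums of SEM::EGR3 lie above every SEM::mock library, while erythroid sums are high in both lines.

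The gain of the 7 genes was measured against a broad difference between the lines. Of 15465 tested genes, 68.5% passed the threshold of an adjusted p of 0.05 in edgeR's quasi-likelihood test, 36.5% as higher and 32.0% as lower in SEM::EGR3. A log2 fold change of at least 2 upwards together with that threshold was reached by 9.21% of tested genes. All SEM::EGR3 libraries lay above all SEM::mock libraries for 37.5% of tested genes and for 7 of the 7 members, a count which the choice of the members fixes. The median log2 fold change over all tested genes was 0.03 and that over the members was 7.28, or 7.11 with the 2 genes at the floor set to their lower bound.

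The secreted protease gene PRSS12 (ENSG00000164099, minus strand, chr4:118280038-118353003) had 12 counts in each of the 3 SEM::mock libraries. In SEM::EGR3, the counts were 5225, 2479 and 3096. After normalization these SEM::EGR3 values were nearly the same, with 338 ± 4.17 CPM (SD, n = 3) against 2.16 ± 0.175 CPM (SD, n = 3) in SEM::mock. The ratio of the means was 156, and the log2 fold change of 7.28 (SE 0.10) ranked 308 among the tested genes. PRSS12 had the smallest spread of the 7 genes in SEM::EGR3, with a coefficient of variation of 1.23%.

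The Nogo receptor gene RTN4R (ENSG00000040608, minus strand, chr22:20241415-20283246) was close to the detection floor in SEM::mock, with 2, 6 and 4 counts. The SEM::EGR3 libraries held 3671, 1782 and 2263 counts. The means were 0.714 ± 0.331 CPM (SD, n = 3) and 242 ± 6.95 CPM (SD, n = 3), a ratio of 339 and a log2 fold change of 8.37 (SE 0.13). Leaving out each library in turn moved that log2 fold change between 8.03 and 8.71, a wider range than the SE conveys. The lowest SEM::EGR3 library was 236-fold above the highest SEM::mock library. The annotated gene starts upstream of the RefSeq start used for its promoter window.

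The deadenylation subunit gene PAN3 (ENSG00000152520, plus strand, chr13:28138506-28295335) was the most abundant of the 7 in SEM::EGR3. It was clearly detected in SEM::mock, with 117, 108 and 83 counts, and reached 10651, 4733 and 6144 counts in SEM::EGR3. The mean levels were 18.3 ± 2.21 CPM (SD, n = 3) and 668 ± 26.6 CPM (SD, n = 3), a ratio of 36.4 and a log2 fold change of 5.18 (SE 0.08). PAN3 thus was present in both lines and differed in amount. The small genes RNU6-82P and EEF1A1P3 lie inside PAN3 and had at most 3 counts in any library.

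The actin-bundling gene AIF1L (ENSG00000126878, plus strand, chr9:131096476-131123152) had 65, 62 and 55 counts in SEM::mock. In SEM::EGR3 the counts were 5251, 2789 and 3370. The means were 10.9 ± 0.557 CPM (SD, n = 3) and 362 ± 20.5 CPM (SD, n = 3), a ratio of 33.3 and a log2 fold change of 5.05 (SE 0.08). Its SEM::EGR3 level was close to that of PRSS12, although its SEM::mock level was higher.

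The lipocalin gene LCN6 (ENSG00000267206, minus strand, chr9:136744011-136748528) was at the floor in SEM::mock, with 2, 0 and 1 counts. The SEM::EGR3 libraries held 2875, 1448 and 1711 counts, or 190 ± 4.85 CPM (SD, n = 3). Against a floor of 3 counts per library, LCN6 had at least a 351-fold higher level in SEM::EGR3. Its fitted log2 fold change of 9.93 is no bound, since it became 10.80 without SEM::mock replicate 1.

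The tetraspanin gene TSPAN17 (ENSG00000048140, plus strand, chr5:176647387-176659054) had the highest SEM::mock level and the smallest gain of the 7. Its counts were 259, 277 and 253 in the SEM::mock replicates, compared with 8158, 4134 and 4782 in SEM::EGR3. The means were 47.3 ± 2.06 CPM (SD, n = 3) and 537 ± 17.1 CPM (SD, n = 3), a ratio of 11.4 and a log2 fold change of 3.51 (SE 0.06). It ranked 858 among the tested genes.

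The muscle gene MYBPC2 (ENSG00000086967, plus strand, chr19:50432903-50466321) had no count in any SEM::mock library. The SEM::EGR3 libraries held 1053, 559 and 731 counts, or 74.7 ± 6.46 CPM (SD, n = 3). This was the lowest SEM::EGR3 level of the 7 genes and the widest spread, with a coefficient of variation of 8.65%. Against the floor of 3 counts per library, MYBPC2 was at least 138-fold higher. Its fitted log2 fold change of 12.23 ranked 5 and depends on the prior count.

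Ordered by level in SEM::EGR3, the genes ran from PAN3 over TSPAN17, AIF1L, PRSS12, RTN4R and LCN6 to MYBPC2. The neighbours AIF1L and PRSS12 differed by about the spread of AIF1L, and every other pair of neighbours in this order differed by more than the SDs of both genes. In SEM::mock, the order was TSPAN17, PAN3, AIF1L, PRSS12 and RTN4R, with LCN6 and MYBPC2 at the floor. TSPAN17 had the highest starting level and the smallest ratio, and RTN4R the lowest starting level above the floor and the largest ratio among the 5 genes with a ratio. The gains of LCN6 and MYBPC2 are known only as lower bounds.

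**Figure D2:**
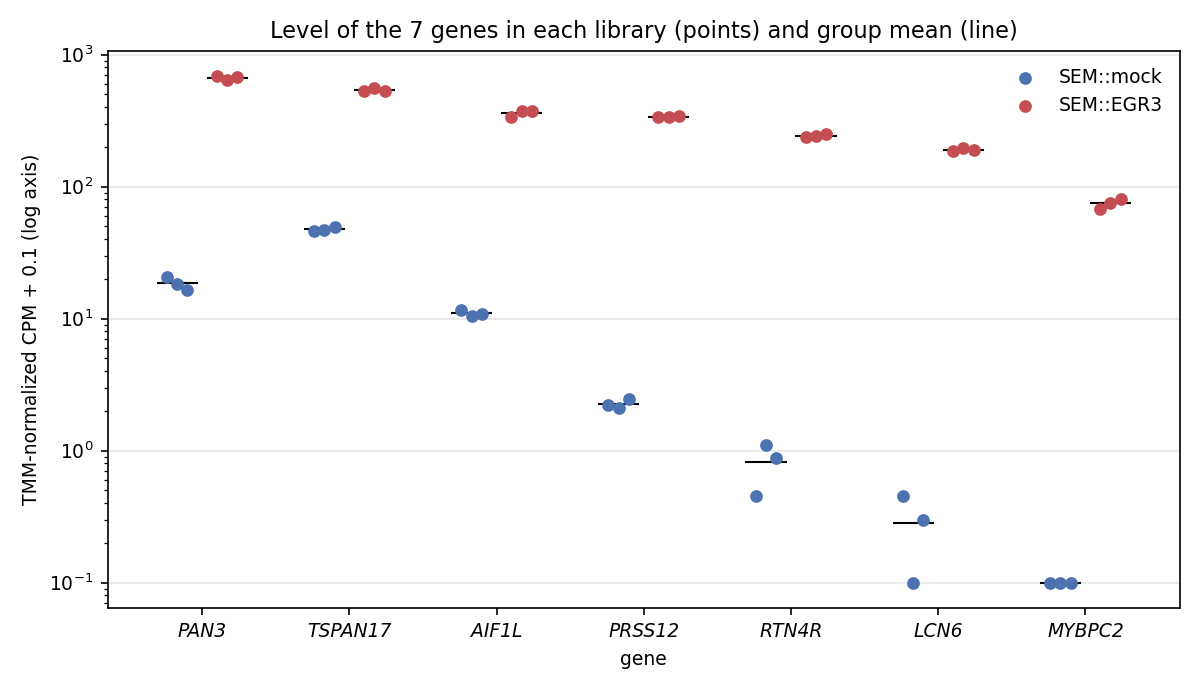
TMM-normalized CPM plus 0.1 (log axis) of the 7 genes in the 3 SEM::mock libraries (blue) and the 3 SEM::EGR3 libraries (red), with the group mean as a line. The 2 lines do not overlap for any gene, and MYBPC2 is at 0 in all SEM::mock libraries.

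Genes near the 7 members were examined next, since position was not used to choose them. Within 500 kb of a member, 242 other genes were listed and 131 were tested. Of these, 65 (49.6%) were higher in SEM::EGR3, 36 were lower and 30 were not called, where 36.5% of all tested genes were called as higher. Of the 131, 18 were at the floor in SEM::mock and could be called only as higher. With at least 10 counts required in every library, 39.0% of neighbours and 33.2% of all tested genes were called as higher. The median log2 fold change of the neighbours was 0.19. A called log2 fold change of at least 2 upwards was found for 25 neighbours (19.1%), where it was found for 9.21% of all tested genes. Of the 25, 17 were at the floor in SEM::mock, and they lay near 5 of the members. Neighbours of the same member share a region and are not independent of each other.

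Large gains nearby were seen for PAN3. PAN3-AS1, an antisense RNA starting 313 bp upstream of PAN3, had 21, 35 and 19 counts in the SEM::mock replicates, compared with 938, 453 and 616 in SEM::EGR3. Its log2 fold change of 3.81 (SE 0.13) passed the test (edgeR quasi-likelihood test, adjusted p = 2.54e-18). Whether the counting used strand is not given in the sources used here, so reads of overlapping or nearby antisense transcripts may not be separable. FLT3, a receptor tyrosine kinase of early blood progenitors that lies 37914 bp upstream of PAN3, had 1, 0 and 4 counts in the SEM::mock replicates, compared with 4998, 2285 and 2961 in SEM::EGR3. Its mean of 0.320 CPM in SEM::mock lay under the floor of 3 counts per library, and FLT3 was at least 591-fold higher in the EGR3 line. FLT1, a VEGF receptor gene 5009 bp downstream, rose by 0.82 (SE 0.19) on the log2 scale. Of 8 tested neighbours of PAN3, 6 were higher and the other 2 were not called.

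Around MYBPC2, 11 of 18 tested neighbours were higher and 3 lower. SPIB, an ETS factor of B cells that ends 1590 bp upstream, had 11, 8 and 10 counts in the SEM::mock replicates, compared with 617, 253 and 323 in SEM::EGR3, a log2 fold change of 4.40 (SE 0.17). FAM71E1, 464 bp downstream on the other strand, rose by 1.04 (SE 0.30). MYH14, a nonmuscle myosin heavy chain gene, had no count in the SEM::mock replicates, compared with 788, 370 and 459 in those of SEM::EGR3, and was at least 93.4-fold higher. The postsynaptic scaffold gene SHANK1 had 0, 2 and 0 counts against 1017, 495 and 574, at least 121-fold higher. CLEC11A, which encodes a growth factor for blood progenitors, went from 147, 121 and 109 counts to 3747, 1764 and 2099, a log2 fold change of 3.40 (SE 0.08). AC020909.2 was at least 6.94-fold higher.

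LCN6 lies in a gene-dense stretch with 77 listed neighbours, of which 29 of 50 tested were higher and 10 lower. The adjacent lipocalin gene LCN8, 5858 bp upstream, had 1, 0 and 0 counts in the SEM::mock replicates, compared with 373, 187 and 198 in those of SEM::EGR3, and was at least 43.9-fold higher. LCN10, 655 bp downstream, had at most 2 counts in any library and was not tested. LCN6 and LCN8 were thus detected in SEM::EGR3, and LCN10 was at the floor in both lines. The other neighbours with a called log2 fold change of at least 2 were AJM1, NALT1, PTGDS, CLIC3, ABCA2, C9orf139, FUT7, ENTPD2, GRIN1 and RNF224. They ranged from ABCA2, a lipid transporter gene with a log2 fold change of 2.11 (SE 0.10), to GRIN1, an NMDA receptor subunit gene with 3.40 (SE 0.29), among those above the floor. CLIC3, a chloride channel gene, was at the floor in SEM::mock and at least 45.4-fold higher. RNF224, a RING finger gene, was also at the floor in SEM::mock and at least 21.1-fold higher.

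Around TSPAN17, 10 of 17 tested neighbours were higher and 3 lower. SNCB, the gene of beta-synuclein in neurons, lies 16831 bp upstream and had 1, 1 and 0 counts against 178, 97 and 103, at least 22.2-fold higher. UNC5A, a netrin receptor gene, was at least 15.7-fold higher and LINC01574 at least 5.01-fold higher. AC139491.5 was at least 6.43-fold higher, and AC139493.2 had a log2 fold change of 2.09 (SE 0.25). The nearest genes were EIF4E1B, 746 bp upstream, with 30, 8 and 15 counts in SEM::EGR3 and none in SEM::mock, and AC113391.1, 48302 bp downstream, at the floor in both lines. Neither was tested.

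Of the other 3 members, PRSS12 and AIF1L had no called gain of at least 2 on the log2 scale nearby. RTN4R had 2 such gains among 22 tested neighbours (9.09%), as many as PAN3 among 8 (25%). For PRSS12, 2 of 5 tested neighbours were higher and 3 were not called, with every log2 fold change under 2. The noncoding SNHG8 lies 215 bp downstream of PRSS12 and had a log2 fold change of 0.04 (SE 0.05), and NDUFS5P5 upstream was at the floor in both lines. For AIF1L, 3 of 11 tested neighbours were higher and 5 lower, with none at a log2 fold change of 2. LAMC3, 2003 bp upstream of AIF1L, was at the floor in both lines, and the nucleoporin gene NUP214, 2409 bp downstream, fell by 0.33 on the log2 scale (SE 0.05). For RTN4R, 4 of 22 tested neighbours were higher and 15 lower. CCDC188 was at least 7.55-fold higher and TMEM191A had a log2 fold change of 4.13 (SE 0.11), whereas the noncoding LINC00896, 32891 bp downstream, fell by 0.76 (SE 0.15). AC007663.1, the nearest gene upstream of RTN4R, was at the floor in both lines.

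**Figure D3:**
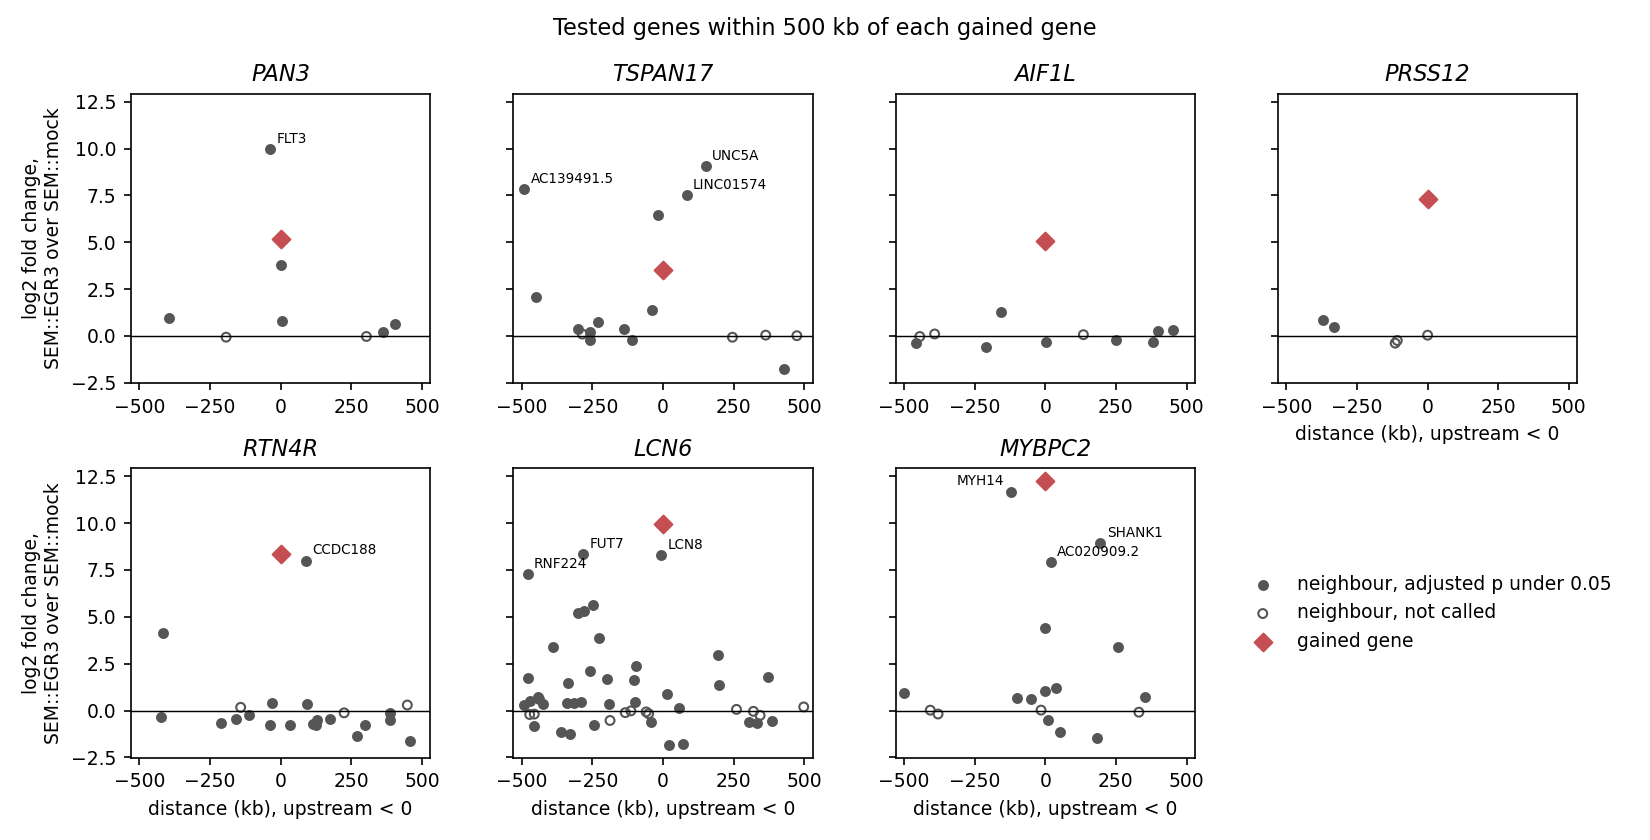
Log2 fold change of SEM::EGR3 over SEM::mock (y axis) against the distance in kb from each gained gene (x axis, upstream below 0) for the 131 tested genes within 500 kb. Filled points passed an adjusted p of 0.05, open points did not, the diamond is the gained gene and genes above a log2 fold change of 7 are named. Gains of at least 2 number 11 near LCN6, 5 each near MYBPC2 and TSPAN17 and 2 each near PAN3 and RTN4R, while no tested neighbour of PRSS12 or AIF1L reached 2.

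The families and pathways of the members were then compared. Of 150 genes in 7 lists, 100 were tested, and 51 of these were higher, 27 lower and 22 not called, with a median log2 fold change of 0.25. Of the 100, 10 were at the floor in SEM::mock and could be called only as higher. Over all tested genes, 36.5% were higher and 32.0% lower, with a median of 0.03.

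PRSS12 acts on agrin, and its list held the agrin pathway of the neuromuscular synapse and genes with scavenger receptor domains. Of 12 tested genes, 7 were higher and 1 lower, with a median log2 fold change of 0.79. Of the 12, 3 were at the floor in SEM::mock and could be called only as higher, DOK7 and CD163L1 among them. DOK7, an adaptor of the muscle kinase MuSK, had no count in the SEM::mock replicates, compared with 106, 82 and 63 in those of SEM::EGR3, and was at least 15.3-fold higher. CD163L1, a scavenger receptor gene with a SEM::mock mean at the floor, was at least 41.0-fold higher by mean level. Its lowest SEM::EGR3 library was 28.9-fold above its highest SEM::mock library. The lysyl oxidase gene LOXL4 had a log2 fold change of 3.37 (SE 0.19) and the scavenger receptor gene SSC4D 2.08 (SE 0.23). The substrate gene AGRN, named for its role after its value was seen, rose by 0.62 (SE 0.18).

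In the Nogo receptor list, 8 of 14 tested genes were higher and 3 lower, with a median of 0.44. LINGO1, a co-receptor of the Nogo receptor, had 41, 58 and 48 counts in the SEM::mock replicates, compared with 442, 208 and 283 in SEM::EGR3, a log2 fold change of 1.73 (SE 0.12). The paralogue RTN4RL2 had a log2 fold change of 1.23 (SE 0.19) and ADAM22, a receptor of LGI1, 1.28 (SE 0.20). RTN2, a reticulon of the endoplasmic reticulum, fell by 1.35 (SE 0.10). The ligand gene RTN4 and the paralogue RTN4RL1 were named after their values were seen. RTN4 had 1946, 2241 and 1759 counts against 5255, 2494 and 3125, a log2 fold change of -0.06 (SE 0.05) that was not called (edgeR quasi-likelihood test, adjusted p = 0.309). RTN4RL1 rose from 4, 7 and 7 to 135, 67 and 93 counts, a log2 fold change of 3.09 (SE 0.26).

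Genes of deadenylation and decapping showed small changes in either direction. Of 35 tested genes, 15 were higher and 10 lower, with a median of 0.11, and none reached a log2 fold change of 2. PAN2, the catalytic partner of PAN3, had 46, 63 and 45 counts in the SEM::mock replicates, compared with 344, 156 and 192 in SEM::EGR3. Its log2 fold change was 1.23 (SE 0.13), while that of PAN3 was 5.18. The mRNA decay adaptor gene ZFP36L1 had 1.49 (SE 0.07), the CCR4-NOT nuclease gene CNOT6L 1.13 (SE 0.08) and the antiproliferative gene BTG3 1.10 (SE 0.10).

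Among AIF1 and actin-bundling genes, 4 of 8 tested were higher and 3 lower. AIF1, the closest relative of AIF1L, moved in the other direction, with a log2 fold change of -1.64 (SE 0.08) and a mean of 67.5 CPM in the SEM::mock replicates, compared with 21.8 CPM in SEM::EGR3. The crosslinker genes ACTN1 and CORO1A had log2 fold changes of 1.63 (SE 0.06) and 3.71 (SE 0.20). ESPN, the gene of the actin bundler espin, was at the floor in SEM::mock and at least 105-fold higher.

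In the lipocalin list, 5 of 6 tested genes were higher and 1 was not called, with a median of 3.55, or 3.28 with genes at the floor set to their lower bound. Besides LCN8, these included APOD, a lipid carrier with a log2 fold change of 4.47 (SE 0.19), and PAEP, the glycodelin gene, with 3.24 (SE 0.26). PTGDS, prostaglandin D synthase, was at the floor in SEM::mock and at least 9.95-fold higher. LCN8 and PTGDS were the 2 of the 6 at the floor and could be called only as higher. Both are also among the neighbours of LCN6 counted above, so the 2 counts are not separate. Over all tested genes, 36.5% were called as higher. The 4 named lipocalin genes had mean levels of 23.7, 29.7, 10.4 and 5.38 CPM in SEM::EGR3 in the order LCN8, APOD, PAEP and PTGDS, all below the 190 CPM of LCN6.

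Of 22 tested tetraspanin genes and ADAM10, 9 were higher and 10 lower, with a median of -0.12. CD81, a widely expressed tetraspanin gene, had a log2 fold change of 1.14 (SE 0.05), and the photoreceptor gene ROM1 1.91 (SE 0.22). TSPAN18 fell by 1.79 (SE 0.10). TSPAN33, a TspanC8 gene, had a log2 fold change of 2.28 (SE 0.31) and of 2.87 without SEM::mock replicate 2. The other TspanC8 genes and ADAM10 were named for their role after their values were seen. ADAM10 rose by 0.90 (SE 0.06) and TSPAN10 by 2.22 (SE 0.39), or by 2.82 without SEM::mock replicate 2, whereas TSPAN5 fell by 0.92 (SE 0.11) and TSPAN14 by 0.71 (SE 0.08). TSPAN15 had at most 7 counts in any library and was not tested.

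All 3 tested genes of the myosin-binding family were higher in SEM::EGR3 at low levels, with a median of 3.34, or 2.59 with genes at the floor set to their lower bound. All 3 were at the floor in SEM::mock and could be called only as higher, so this count is no result about the family. MYBPH had no count in the SEM::mock replicates, compared with 66, 35 and 42 in those of SEM::EGR3, and was at least 8.40-fold higher. MYBPC3, the cardiac isoform, was at least 6.01-fold higher, with 0, 3 and 2 counts against 43, 23 and 35. MYBPHL had 5, 2 and 0 counts against 48, 15 and 15 and, with a SEM::mock mean under the floor, was at least 4.18-fold higher by mean level. Its SEM::mock replicate 1 lay above the floor at 0.884 CPM, and the lowest SEM::EGR3 library was 1.88-fold above that replicate.

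**Figure D4:**
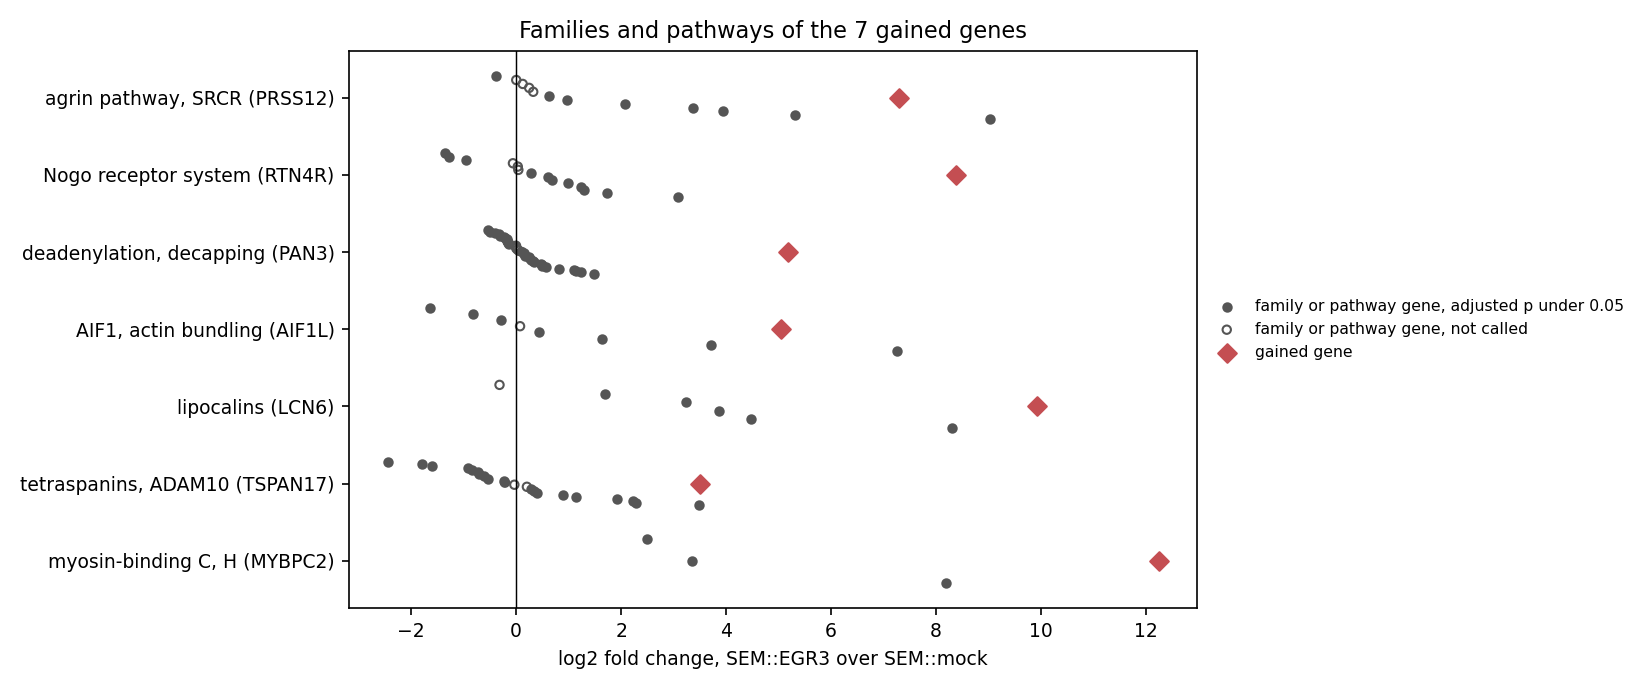
Log2 fold change of SEM::EGR3 over SEM::mock for the tested genes of the family and pathway list of each member (grey, filled where an adjusted p of 0.05 was passed) and for the member itself (red diamond). DOK7 and ESPN, both at the floor in SEM::mock, have larger fitted values than PRSS12 and AIF1L. The members were chosen for large values in this contrast, so their place beside their relatives is no finding.

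Programmes of the tissues in which the members are known best were counted as well. Of 15 tested muscle genes, 11 were higher and 4 lower, with a median of 1.85, or 1.70 with genes at the floor set to their lower bound. Over all tested genes, 36.5% were higher and 32.0% lower. Of the 15 muscle genes, 6 were at the floor in SEM::mock and could be called only as higher. The cardiac troponin gene TNNI3 was the called muscle gene with the highest mean level and went from 260, 220 and 200 counts to 4643, 2669 and 2826, a log2 fold change of 2.99 (SE 0.08). Among the 4 lower genes, the troponin gene TNNT1, named after its value was seen, fell by 1.11 (SE 0.06). The myogenic factor MYOD1, singled out after its value was seen, had 0 counts in SEM::mock and at most 1 in SEM::EGR3. Of 5 tested neuronal genes, 3 were higher and 2 lower, and 1 of the 5 was at the floor in SEM::mock. SYT1, a calcium sensor of synaptic vesicles, had a log2 fold change of 4.29 (SE 0.13). The 2 lower genes, ENO2 and GAP43, fell by 0.63 (SE 0.13) and 1.62 (SE 0.34). The defining neuronal gene TUBB3, also singled out, had at most 1 count in any library. Of the 9 epididymis genes, 5 were listed, and none of these passed the filter on low counts. Their summed level was 0 in SEM::mock and between 0.442 and 0.674 CPM in SEM::EGR3.

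Genes with the most similar profile were found by the distance between log2 CPM profiles centred on their mean over the 6 libraries, computed with a prior count of 2. The 2 closest genes were SOX11 and PDGFRB for RTN4R, TNFRSF13C and RUNX2 for PAN3, EBF1 and HOXA7 for LCN6, and PXDN and CLECL1 for MYBPC2. For PRSS12 they were MB and GALP, for AIF1L ATP6V0A4 and IL12RB1, and for TSPAN17 AC110285.6 and AC093673.2. The distances were between 0.110 for AC110285.6 and 0.975 for HOXA7. Of the 14 genes, only TNFRSF13C and RUNX2 were above the floor in SEM::mock. With this prior count a gene without counts in SEM::mock can lie close to a gene with a higher starting level and a smaller gain, as for TSPAN17, and the distances are given as a description. RUNX2 had 37, 31 and 27 counts against 2930, 1419 and 1720, close to the pattern of PAN3 at a distance of 0.252.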

How the data were processed

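MACE-Seq libraries of 3 SEM::mock and 3 SEM::EGR3 samples were analysed. The authors' processing notes name bcl2fastq, Bowtie2, HTSeq and GRCh38, with versions and strand use not given in the sources used here. The authors deposited 1 table of 35410 genes with raw counts per sample, with CPM values scaled to 1000000 reads of the library, and with counts divided by size factors as a normalized signal for 30594 genes. Its columns of DESeq2 fold changes and p-values were not used. The raw counts cover between 73.6% and 75.8% of the library totals that the deposited CPM values imply.

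Counts were tested in edgeR 4.0.16 (R 4.3.3, limma 3.58.1) with TMM normalization, filterByExpr and the quasi-likelihood test, with Benjamini-Hochberg adjustment over all 15465 tested genes and a threshold of 0.05. CPM in the text are TMM-normalized values computed here from the raw counts, and fold changes are SEM::EGR3 over SEM::mock. Lower bounds use a floor of 3 counts per library for genes whose mean CPM in SEM::mock did not exceed it. They apply to the ratio of group means and cover counting error only. A single SEM::mock library can lie above the floor, as for MYBPHL, CD163L1 and FLT3. A gene counted as higher or lower, or as called, passed this threshold. The SE beside a log2 fold change is its absolute value divided by the square root of the F statistic of this test. It is not a fitted standard error and can be too small where SEM::mock counts are few. In simulated counts, 182 of 196 changed genes among 15030 were recovered with 18 false calls. The simulated log2 fold changes were 1 or 2 in either direction, with the same dispersion for every gene. In the data 68.5% of tested genes were called, so the simulation does not give the error rate of these calls.

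Positions are from GENCODE release 29 on GRCh38, which held 97.0% of the listed genes. Promoter sequences are from RefSeq on GRCh38.p14. Named beside the members were the nearest listed gene on each side, called neighbours within 500 kb with a log2 fold change of at least 2 in either direction, up to 4 called genes per family list with a change of at least 1, the called gene of highest mean level per tissue list, the 2 genes of closest profile per member, and genes overlapping a member. The members, lists and tests were chosen with earlier results of these data known. Alternatives were DESeq2 1.42.0, no normalization factors, other count filters, a prior count of 2, other windows, a replicate block and leaving out each library. Replicate libraries differed by more than counting noise. The replicates are labelled as biological, but whether they were separate transfections is not given in the sources used here.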

Additional observations from a re-analysis of the deposited data

How the results depend on the processing

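No result changed direction under any alternative run. Of the neighbouring genes, 101 were called within 500 kb, 52 (of 66 tested) within 250 kb and 184 (of 233 tested) within 1000 kb, since the window sets how many genes are counted. Of the tissue programme genes, 20 were called, and 9 (of 9 tested) when at least 10 counts were required in every library, which leaves fewer genes to test. That filter also removed RTN4R, LCN6 and MYBPC2, so that 4 members remained, and left 39 of 100 tested neighbours (39.0%) called as higher, where 4251 of 12801 tested genes (33.2%) were, instead of 49.6% of neighbours against 36.5% of genes. The median log2 fold change of the members was 7.28 and became 7.14 with a prior count of 2, which lowered LCN6 to 8.80 and MYBPC2 to 8.24. DESeq2 gave 11.14 for MYBPC2. With a floor of 10 counts, the lower bounds were 105.4-fold for LCN6 and 41.5-fold for MYBPC2. Leaving out each library in turn gave between 9938 and 10499 called genes over the whole table (10594 with all libraries), between 97 and 105 called neighbours, between 74 and 78 called family genes (78 with all libraries), between 18 and 21 called tissue genes and a member median between 7.22 and 7.33. The deviations of same-numbered libraries from the log2 CPM mean of their own line correlated at -0.24, -0.17 and -0.07 over 10144 genes. No positive relation by replicate number was thus seen, but this cannot settle whether the samples were paired. A fit with the replicate number as a block called 10081 genes, 75 family genes, 100 neighbours and 20 tissue genes, with a member median of 7.28. Levels under the floor of 0.540 CPM, which 3 counts amount to on average in SEM::mock, could not be told from 0.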
